A study of Mus musculus with 4 samples.

Results

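The transcription factors of the GATA axis set the choice between the erythroid, megakaryocyte, mast cell and basophil branches of blood formation. The 10 genes described here, Gata1, Gata2, Gfi1b, Zfpm1, Tal1, Lmo2, Klf1, Nfe2, Mitf and Runx1, were listed by name as regulators of those branches, and their probe sets were found through the array's platform annotation. All 10 were measured, with 11 probe sets, among 19938 named genes and 35556 probe sets in all. The measurements are 4 Affymetrix gene arrays of mouse cells of C57BL/6 background, 1 array in each of 4 groups. The groups were colony-forming cells grown from short-term haematopoietic stem cells (ST-HSC) or long-term haematopoietic stem cells (LT-HSC), each transduced with mock or with CreER, a Cre enzyme whose activity depends on an oestrogen receptor ligand. These are named ST-HSC and LT-HSC colonies. All colonies grew in methylcellulose containing the cytokines GM-CSF, IL-6 and IL-3 and stem cell factor (SCF). According to the series title the cells conditionally express MLL-ENL, a leukaemia fusion gene. The sources used here do not say whether CreER had been activated, how many mice of what age were used or whether animals were pooled. The study was designed to compare CreER with mock within each population and LT-HSC with ST-HSC within each transduction, as a screen for genes of leukaemic transformation.

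GATA1 and GATA2 bind the same short DNA motif. GATA2 acts in stem and progenitor cells and also acts in mast cells and basophils, whereas GATA1 drives red cell, megakaryocyte, eosinophil and mast cell genes. FOG1 (the product of Zfpm1) is a cofactor that binds GATA factors, and SCL (the product of Tal1) and LMO2 join them in a shared complex with LDB1. GFI1B is a repressor, KLF1 an activator of red cell genes, NF-E2 an activator of platelet genes, MITF a regulator of mast cell and pigment cell genes, and RUNX1 a factor needed for the first blood stem cells and for platelets.

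Expression is given as the deposited log2 value, so a difference of 1 is a 2-fold change. A gene met the size rule when 2 arrays differed by at least 1 log2 unit and the higher array was above its signal floor. The floor is each array's median over probe sets with 1 gene symbol and lay between 8.07 and 8.13. Each group had 1 array, so a pairwise difference has no replicate check and no p-value. In a separate fit, limma estimated the LT-HSC minus ST-HSC and the CreER minus mock effect from all 4 arrays together. The limma p-values set an effect against how far the population and transduction effects fail to add up, pooled in part over all genes. That remainder is not a replicate spread. It cannot be told apart from noise between the arrays, which may be technical. The array medians lay between 7.75 and 7.82. All 15 neutrophil and all 14 monocyte and macrophage genes measured were above the floor on at least 1 array, against 1 of 9 T and NK cell genes (Nkg7) and 1 of 7 B cell genes (Cd79b). The labels name the cells of origin, and the arrays read the mixed progeny of the colonies. In such bulk RNA, fewer cells of a type and less RNA per cell cannot be told apart.

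Colonies of LT-HSC origin carried more Gata2, Gata1 and Gfi1b RNA than colonies of ST-HSC origin, with either transduction. With mock, 3 of the 10 factors were at least 2-fold higher in LT-HSC colonies and 0 were lower. Over all 10208 genes past the floor, 3.12% met the size rule in that comparison, 2.72% on the higher and 0.402% on the lower side. With CreER the same 3 of 10 met it, where the background over 10189 genes was 1.94%, split into 1.39% higher and 0.55% lower. Both comparisons use different arrays, and 1.22% of the 9991 genes past the floor in both were at least 2-fold higher in LT-HSC colonies in each. The median difference over the 10 was 0.43 with mock and 0.42 with CreER, beside -0.027 and -0.023 over all genes past the floor. With mock 8 of the 10 factors lay above 0 and with CreER 9, beside 45.1% and 46.1% of all genes past the floor.

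Gata2 read 8.92 with mock and 9.41 with CreER in ST-HSC colonies, against 11.94 with mock and 11.70 with CreER in LT-HSC colonies. Both LT-HSC arrays were far above both ST-HSC arrays, and all 4 were above the floor. The LT-HSC level was 8.13-fold that of ST-HSC with mock, the 20th largest difference of 10208 genes, and 4.87-fold with CreER, the 13th largest of 10189. In the limma fit Gata2 was higher in LT-HSC colonies by 2.65 ± 0.19 log2 units (SE, 4 arrays), at an adjusted p of 0.0055.

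Gata1 read 7.31 with mock and 7.50 with CreER in ST-HSC colonies, against 9.07 and 8.82 in LT-HSC colonies. Only the LT-HSC arrays were above the floor, so the size of the differences, 1.76 with mock and 1.31 with CreER, is uncertain. The limma estimate for Gata1 was 1.54 ± 0.13 (SE) with an adjusted p of 0.0083. Gfi1b, whose protein represses stem and progenitor genes as red cells and megakaryocytes form, read 8.72 with mock and 8.83 with CreER in ST-HSC colonies, against 9.93 and 9.95 in LT-HSC colonies. Its values fell into a low ST-HSC pair and a high LT-HSC pair, all above the floor, with differences of 1.21 and 1.12. The limma estimate for Gfi1b was 1.16 ± 0.094 (SE) with an adjusted p of 0.0072.

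**Figure D1:**
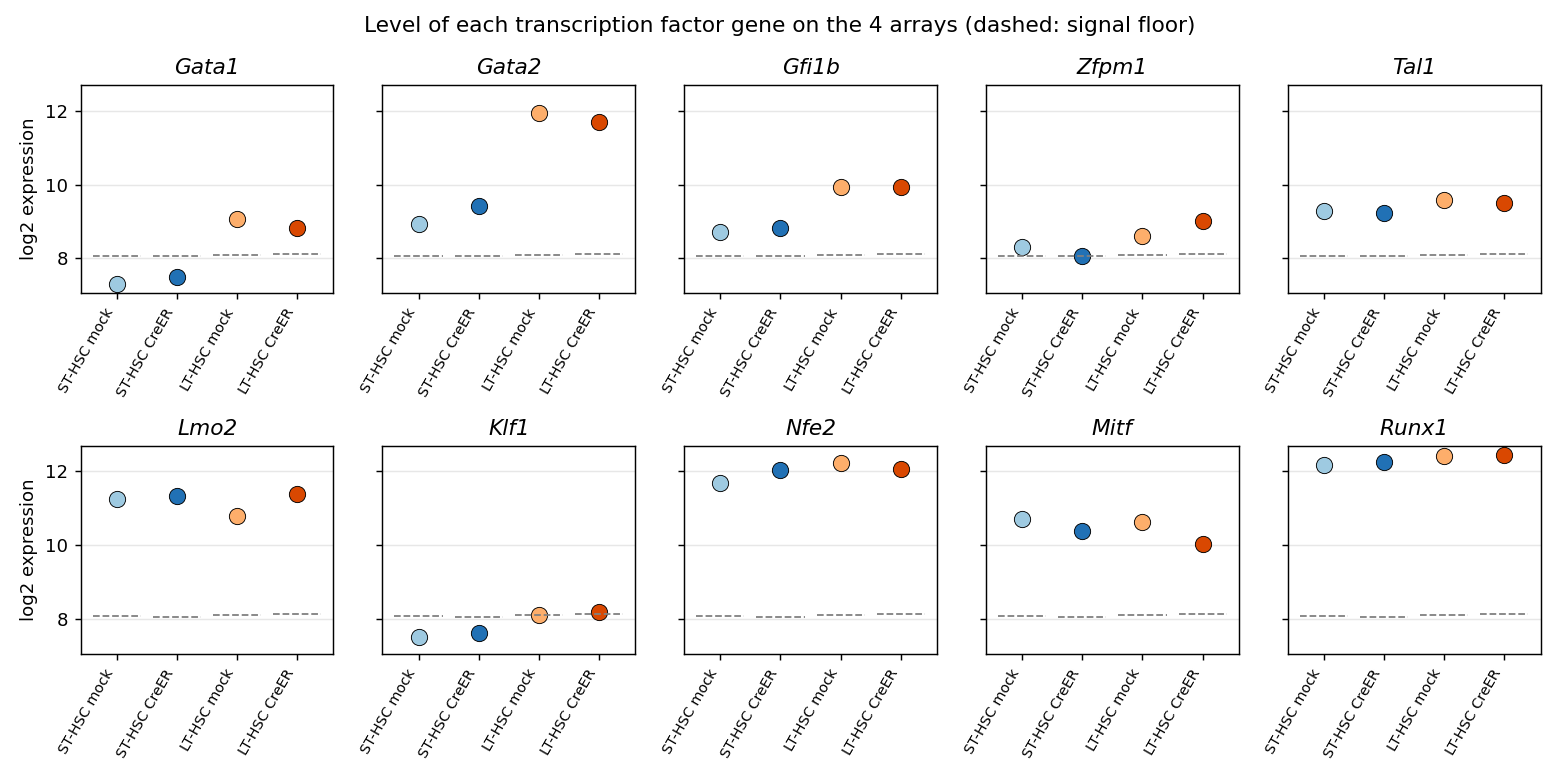
Log2 expression (y axis) of each of the 10 transcription factor genes on the 4 arrays (x axis), 1 point per array, with each array's signal floor as a dashed line. Gata2, Gata1 and Gfi1b form a low ST-HSC and a high LT-HSC pair, whereas Runx1 and Tal1 span 0.26 and 0.35 log2 units over the 4 arrays.

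The sequences just upstream of these 3 genes are shown because they are the members that met the size rule, and because GATA factors are known to act on their own family's genes. The 250 bases before each annotated start come from the RefSeq promoter table of build GRCm38.p6, 5′ to 3′ on the gene's strand. Letters in capitals mark the GATA motif, searched on both strands as AGATAA or AGATAG, and as the forms TGATAA or TGATAG.
Gfi1b, chr2:28621983-28622232, minus strand: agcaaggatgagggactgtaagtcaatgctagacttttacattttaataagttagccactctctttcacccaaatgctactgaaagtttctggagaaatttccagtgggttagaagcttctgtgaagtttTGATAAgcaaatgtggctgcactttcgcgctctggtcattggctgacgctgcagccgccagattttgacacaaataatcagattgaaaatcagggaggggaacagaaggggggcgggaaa
Gata1, chrX:7967911-7968160, minus strand: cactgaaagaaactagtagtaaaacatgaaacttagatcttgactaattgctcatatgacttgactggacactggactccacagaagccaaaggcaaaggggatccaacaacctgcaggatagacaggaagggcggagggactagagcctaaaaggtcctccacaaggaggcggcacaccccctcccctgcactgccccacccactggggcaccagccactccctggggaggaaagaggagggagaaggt
Gata2 upstream start, chr6:88193641-88193890, plus strand: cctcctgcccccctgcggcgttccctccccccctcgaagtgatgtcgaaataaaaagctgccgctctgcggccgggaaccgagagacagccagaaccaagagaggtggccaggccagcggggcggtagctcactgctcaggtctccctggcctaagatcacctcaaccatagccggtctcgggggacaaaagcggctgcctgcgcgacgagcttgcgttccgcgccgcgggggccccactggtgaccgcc
Gata2 downstream start, chr6:88198414-88198663, plus strand: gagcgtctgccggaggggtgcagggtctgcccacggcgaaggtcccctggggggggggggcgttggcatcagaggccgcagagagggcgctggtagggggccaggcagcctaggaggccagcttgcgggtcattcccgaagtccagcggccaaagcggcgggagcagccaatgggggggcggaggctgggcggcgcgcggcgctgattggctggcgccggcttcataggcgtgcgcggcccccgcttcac
The Gfi1b window held 1 match, TGATAA, 120 to 115 bases before the start, and the Gata1 and Gata2 windows held none of these letters. Windows were found for 8 of the 10 genes, 13 windows in all. Lmo2 and Nfe2 had no entry. A match was present in 5 of the 13 windows and in 4 of the 8 genes (Gfi1b, Tal1, Klf1 and Mitf), and in 26.5% of all 32851 windows in the table. The Klf1 match lay 80 to 75 bases before the start, on the reverse strand.
Klf1, bases around the match: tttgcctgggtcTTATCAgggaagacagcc
The last of the 3 Mitf windows held 2 matches, with the nearer 13 to 8 bases before the start. G and C made up 36% of that Mitf window, the lowest share of the 13, and 74% of the downstream Gata2 window, the highest, against 44.4% at Gfi1b and a median of 52.4% over all windows in the table. A match is a description of these letters and not a measured binding site.

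Klf1 was the 4th of the 10 factors to pass the limma test for LT-HSC against ST-HSC. It read 7.52 with mock and 7.63 with CreER in ST-HSC colonies, against 8.12 and 8.18 in LT-HSC colonies, so the LT-HSC arrays lay only just above the floor and the ST-HSC arrays under it. The differences were 0.60 with mock and 0.56 with CreER, and the limma estimate was 0.58 ± 0.092 (SE) with an adjusted p of 0.033. That call was lost with cyclic loess normalization (limma adjusted p = 0.055) and with an intensity trend in the prior (limma adjusted p = 0.059). In all, 4 of the 10 factors were called higher and 0 lower by limma at an adjusted p of 0.05, beside a background of 6.27% of 10411 genes. At an unadjusted limma p under 0.05 it was 6 of 10, beside 25.7%. Over all genes, limma at the adjusted p of 0.05 called 394 higher and 259 lower in LT-HSC colonies, or 325 and 339 when arrays were centred on their medians. Gata1 and Klf1 entered the tested genes only through their LT-HSC arrays.

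The cofactors of the GATA complex passed neither rule. Zfpm1, which encodes FOG1, read 8.30 with mock and 8.06 with CreER in ST-HSC colonies, against 8.60 and 9.02 in LT-HSC colonies. The ST-HSC CreER value lay just under the floor, and LT-HSC CreER was the highest. The LT-HSC minus ST-HSC difference was 0.30 with mock and 0.96 with CreER, just short of 2-fold, and the limma estimate of 0.63 ± 0.17 (SE) had an adjusted p of 0.098. Tal1 read 9.29, 9.23, 9.57 and 9.50 on ST-HSC mock, ST-HSC CreER, LT-HSC mock and LT-HSC CreER. Both Tal1 values of LT-HSC origin lay above both of ST-HSC origin by a small step of 0.28 with mock and 0.27 with CreER, and limma gave an estimate of 0.28 with a 95% interval of 0.045 to 0.51 and an adjusted p of 0.14.

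Lmo2, the bridging protein of that complex, read 11.25 with mock and 11.34 with CreER in ST-HSC colonies, against 10.78 and 11.40 in LT-HSC colonies. The LT-HSC mock array stood low and the others lay within a narrow band. Lmo2 was therefore the gene among the 10 with the lowest LT-HSC minus ST-HSC difference with mock, at -0.47, beside 0.061 with CreER, which turned to -0.0059 when arrays were centred on their medians. The limma estimate of -0.21 had a 95% interval of -0.58 to 0.17 and an adjusted p of 0.44.

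The platelet and stem cell factors Nfe2 and Runx1 were well above the floor on every array. Nfe2 read 11.67 with mock and 12.03 with CreER in ST-HSC colonies, against 12.24 and 12.07 in LT-HSC colonies, with ST-HSC mock standing low. Its LT-HSC minus ST-HSC difference was 0.56 with mock and 0.040 with CreER (-0.026 with centred arrays), and the limma estimate of 0.30 had a 95% interval of -0.069 to 0.67 and an adjusted p of 0.27. Runx1 read 12.18, 12.25, 12.42 and 12.44 on ST-HSC mock, ST-HSC CreER, LT-HSC mock and LT-HSC CreER, a span of 0.26 that was the narrowest of the 10. Its limma estimate of 0.22 had a 95% interval of -0.020 to 0.45 and an adjusted p of 0.23.

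Mitf, the mast cell factor, had another pattern. It read 10.71 with mock and 10.38 with CreER in ST-HSC colonies, against 10.63 and 10.02 in LT-HSC colonies, so both CreER arrays lay below both mock arrays. The LT-HSC minus ST-HSC difference was -0.079 with mock and -0.35 with CreER, with a limma estimate of -0.22, a 95% interval of -0.49 to 0.062 and an adjusted p of 0.29. A further Mitf probe set lay far under the floor, between 3.51 and 4.01. Averaging both probe sets moved the mock difference to 0.11.

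**Figure D2:**
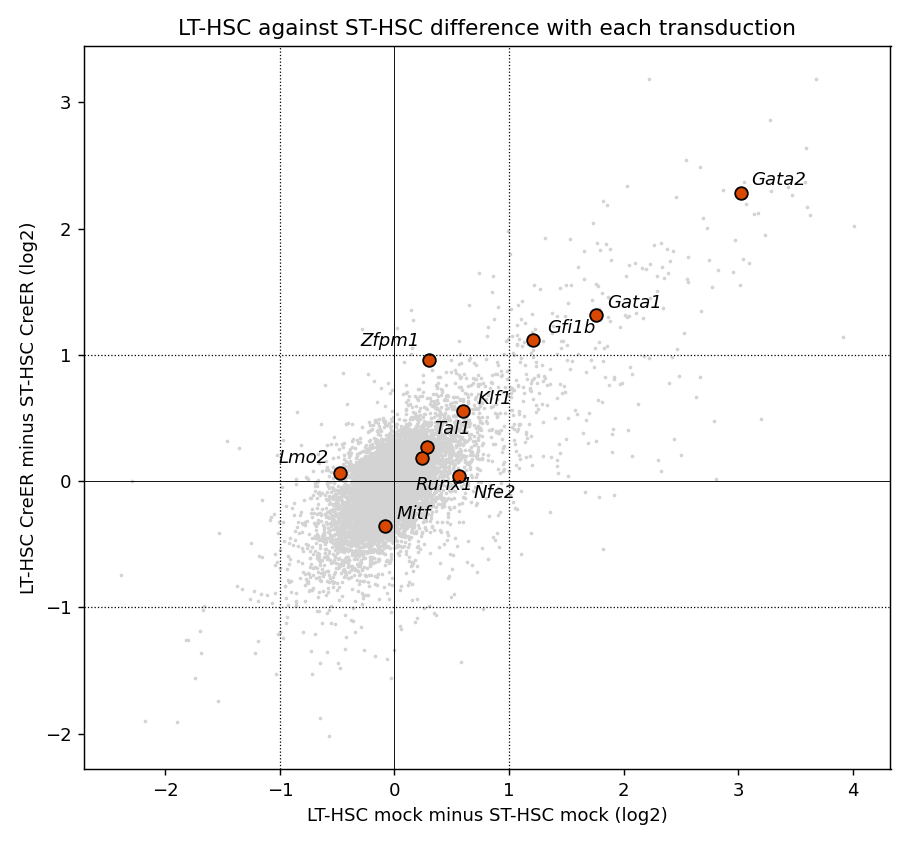
LT-HSC minus ST-HSC log2 difference with mock (x axis) against the same difference with CreER (y axis). Each grey point is 1 gene past the floor in either comparison, orange points are the 10 transcription factors, and dotted lines mark 2-fold. Gata2 (3.02 and 2.28), Gata1 (1.76 and 1.31) and Gfi1b (1.21 and 1.12) lie in the upper right corner, Zfpm1 (0.30 and 0.96) lies just under the 2-fold line, and Mitf and Lmo2 lie below 0 with mock.

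CreER against mock gave small differences for all 10 factors. None of the 10 met the size rule in LT-HSC colonies, where 0.875% of 10172 genes did (0.108% higher and 0.767% lower), or in ST-HSC colonies, where 0.518% of 10047 did (0.438% higher and 0.0796% lower). The median was -0.029 over the 10 in LT-HSC colonies and 0.079 over the 8 past the floor in ST-HSC colonies (all but Gata1 and Klf1), against medians of -0.027 and -0.026 over all genes past the floor. In the limma fit 0 of the 10 factors passed an adjusted p of 0.05, and 0% of all genes did, although 1048 of 10411 genes (10.1%) and 1 of the 10 factors, Mitf, had an unadjusted limma p under 0.05. These comparisons share the mock and CreER arrays with the LT-HSC against ST-HSC comparisons above.

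The widest CreER differences among the 10 were those of Lmo2 and Mitf in LT-HSC colonies. Lmo2 was 0.62 higher with CreER there, 87th from the top of 10172 genes, and 0.085 higher in ST-HSC colonies, with a limma estimate of 0.35 ± 0.15 (SE) and an adjusted p of 0.51. Mitf was lower with CreER in both populations, at -0.61 in LT-HSC and -0.33 in ST-HSC colonies. The limma estimate for Mitf was -0.47 ± 0.11 (SE) with an unadjusted p of 0.0069 and an adjusted p of 0.33. The ST-HSC value for Mitf was -0.16 as the mean of both probe sets. The mean level of the 14 monocyte and macrophage genes also lay lower with CreER, at 11.01 against 11.75 in LT-HSC colonies and 11.40 against 11.83 in ST-HSC colonies, and its part in the Mitf values was not tested.

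For Gata2 the CreER minus mock difference was -0.25 in LT-HSC and 0.49 in ST-HSC colonies. The Gata2 gap between LT-HSC and ST-HSC was thus 0.74 log2 units narrower with CreER than with mock, the 293rd largest such change of 10411 genes, whose median absolute change was 0.15. Gata1 behaved alike in sign, at -0.25 and 0.19, and so did Nfe2, at -0.17 and 0.36. Zfpm1 had the opposite signs, at 0.42 and -0.24. Gfi1b (0.014 and 0.10), Tal1 (-0.072 and -0.065), Klf1 (0.061 and 0.10) and Runx1 (0.015 and 0.074) were closest to 0. In LT-HSC colonies Gfi1b, Klf1 and Runx1 turned below 0 under at least 1 other normalization.

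**Figure D3:**
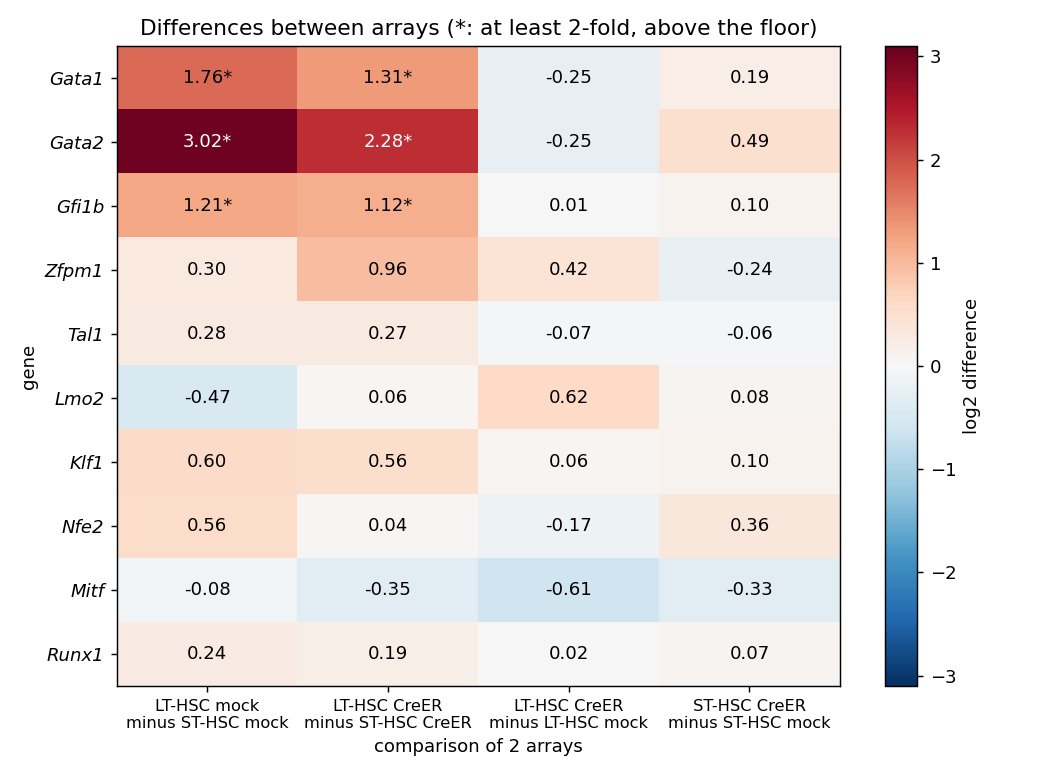
Log2 differences (colour and printed value) of the 10 genes (rows) in the 4 comparisons of 2 arrays (columns), with an asterisk where the difference was at least 2-fold and the higher array above its floor. The asterisks lie in the LT-HSC minus ST-HSC columns of Gata1, Gata2 and Gfi1b, and the CreER minus mock columns run from -0.61 (Mitf) to 0.62 (Lmo2).

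Relatives of the 10 factors were compared in the same way. Of 25 listed paralogs 24 were measured, and 16 passed the floor in each comparison. Of those 16, 0 met the size rule in any of the 4 comparisons. Over all genes past the floor the share was 0.518% to 3.12%, so 0 of 16 does not set the paralogs apart. Gata3, the T cell and innate lymphoid relative, stayed under the floor on all 4 arrays, between 6.71 and 7.14, as did Gata5 and Gata6, while Gata4 lay just above the floor on all 4, between 8.13 and 8.41. Runx3 was the paralog that passed limma for LT-HSC against ST-HSC. It was 1 of 16 tested, beside 6.27% of all genes, so the paralogs as a list were near the background. It read 9.54 with mock and 9.43 with CreER in ST-HSC colonies, against 10.23 and 10.36 in LT-HSC colonies, with an estimate of 0.81 ± 0.11 (SE) and an adjusted p of 0.020. Gfi1, the granulocyte counterpart of Gfi1b, had the opposite sign to it, at -0.49 with mock and -0.042 with CreER, and an adjusted p of 0.28 from limma. The MITF relatives Tfe3, Tfeb and Tfec were each within 0.3 log2 units between LT-HSC and ST-HSC with either transduction.

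All 24 listed binding partners and cofactors were measured and above the floor on at least 1 array, and 0 met the size rule or the limma threshold in any comparison. Over all genes the share was 0.518% to 3.12% by size. By limma it was 6.27% for LT-HSC against ST-HSC and 0% for CreER against mock. Their LT-HSC minus ST-HSC medians were -0.013 with mock and 0.065 with CreER. The widest with mock was Ssbp2, a stabiliser of LDB1 complexes, at 0.63 and 0.39 with a limma adjusted p of 0.059. The widest with CreER was Maff, at 0.38 with mock and 0.41 with CreER and a limma adjusted p of 0.073. Maff was under the floor on both ST-HSC arrays and just above it on both LT-HSC arrays. It was tested only through the latter, so the sizes of its differences are uncertain. Maff, Mafk and Mafg encode the small MAF proteins that pair with NF-E2. Mafk stood at 0.49 and 0.32 with a limma adjusted p of 0.081, and Mafg at 0.30 and 0.00059 with one of 0.46. GATA2, RUNX1, SCL, LMO2, LYL1, ERG and FLI1 are known to bind together in blood progenitors. Lyl1, Erg and Fli1, picked here after their values were seen, differed by 0.27 and 0.30 (Lyl1), -0.25 and -0.20 (Erg) and -0.031 and -0.030 (Fli1) between LT-HSC and ST-HSC, with mock and CreER. Among those 7 genes Gata2 met the size rule and the other six did not.

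Genes known as targets of these factors were listed by lineage. Of the mast cell and basophil genes, 25 were measured and 18 passed the floor in each LT-HSC against ST-HSC comparison. Of those 18, 13 were at least 2-fold higher in LT-HSC colonies with mock and 7 with CreER. The shares over all genes past the floor were 2.72% and 1.39%. Among the 13, Fcer1a, Ms4a2, Tpsb2, Tph1, Il4, Cd200r3 and Slc18a2 were under the floor on ST-HSC mock. They passed it there only through the LT-HSC mock array. The medians over the 25 were 1.05 and 0.32. Of the 18 that passed the floor on at least 1 array, limma called 8 higher and 0 lower, beside 6.27% of all genes called in either direction. Among them Mcpt8, a basophil protease, read 11.28 with mock and 11.49 with CreER in ST-HSC colonies, against 13.33 and 13.20 in LT-HSC colonies, with an estimate of 1.88 ± 0.12 (SE) and an adjusted p of 0.0042. The basophil cytokine gene Il4 (2.59), the vesicular amine transporter gene Slc18a2 (2.59) and the receptor gene Cd200r3 (2.88) were called too. Il4 and Cd200r3 lay under the floor on both ST-HSC arrays and were tested only through the LT-HSC arrays, so the sizes of their differences are uncertain. Fcer1a and Tph1, by contrast, were 2.79 and 3.20 higher with mock and 0.47 and 0.50 higher with CreER, and limma gave adjusted p of 0.13 and 0.14. The sizes of these 2 mock differences are uncertain too, since both genes were under the floor on ST-HSC mock.

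Of 18 measured megakaryocyte genes, 14 passed the floor in each LT-HSC against ST-HSC comparison. Of those 14, 6 were at least 2-fold higher in LT-HSC colonies with each transduction. The shares over all genes past the floor were 2.72% with mock and 1.39% with CreER. Medians over the 18 were 0.30 with mock and 0.64 with CreER. Of the 14 that passed the floor on at least 1 array, limma called 7 higher and 0 lower, beside 6.27% of all genes called in either direction. Itga2b, the integrin chain that marks the megakaryocyte lineage, read 8.16 with mock and 8.60 with CreER in ST-HSC colonies, against 10.32 and 10.28 in LT-HSC colonies. Its limma estimate was 1.92 ± 0.14 (SE) with an adjusted p of 0.0057. The platelet chemokine gene Ppbp had an estimate of 2.79 and Rab27b, which acts in granule release, one of 1.84. Rab27b and Gp5, another of the 7, were under the floor on both ST-HSC arrays and entered the test only through the LT-HSC arrays. This leaves the sizes of their differences uncertain.

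The red cell genes were mostly too weak to test. Of 36 listed, 25 were measured and 9 of those were above the floor on at least 1 array, while Alas2, the first enzyme of haem synthesis in red cells, stayed under it, between 7.01 and 7.13. With mock 2 of those 9, the carbonic anhydrase genes Car1 and Car2, were at least 2-fold higher in LT-HSC colonies. With CreER 1 was, Car2, and the shares over all genes past the floor were 2.72% and 1.39%. Of the 9 tested, limma called both, with 1.36 for Car2 at an adjusted p of 0.0055 and 0.97 for Car1 at 0.048, beside 6.27% of all genes. Car1 was under the floor on both ST-HSC arrays, so it was tested only through the LT-HSC arrays. The transferrin receptor gene Tfrc differed by -0.76 with mock and 0.024 with CreER. Of 9 measured eosinophil genes, 7 passed the floor in the LT-HSC against ST-HSC comparison with mock and 6 in that with CreER. Among those, 5 were at least 2-fold higher in LT-HSC colonies with mock and 0 with CreER, beside 2.72% and 1.39% of all genes past the floor. Medians over the 9 were 1.13 and 0.61. Those 5 included Rnase2a and Alox15, which were under the floor on ST-HSC mock. Of the 7 past the floor on at least 1 array, limma called Epx and Alox15 higher, at adjusted p of 0.047 and 0.025, beside 6.27% of all genes called in either direction. Alox15 had both ST-HSC arrays under the floor.

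Over the mast cell and basophil genes the mean log2 level was 8.08 with mock and 8.45 with CreER in ST-HSC colonies, against 9.53 and 9.12 in LT-HSC colonies. These means ranked the 4 arrays in the same order as Gata2 and Gata1, and so did the megakaryocyte and eosinophil means. On ST-HSC mock, ST-HSC CreER, LT-HSC mock and LT-HSC CreER the megakaryocyte means were 9.11, 9.19, 9.92 and 9.91. The eosinophil means on those arrays were 8.65, 9.26, 9.97 and 9.76. The neutrophil means were 12.84, 13.31, 12.89 and 13.07 and the monocyte and macrophage means 11.83, 11.40, 11.75 and 11.01. The part of a changed cell mixture in the Gata2, Gata1 and Gfi1b differences was not tested.

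**Figure D4:**
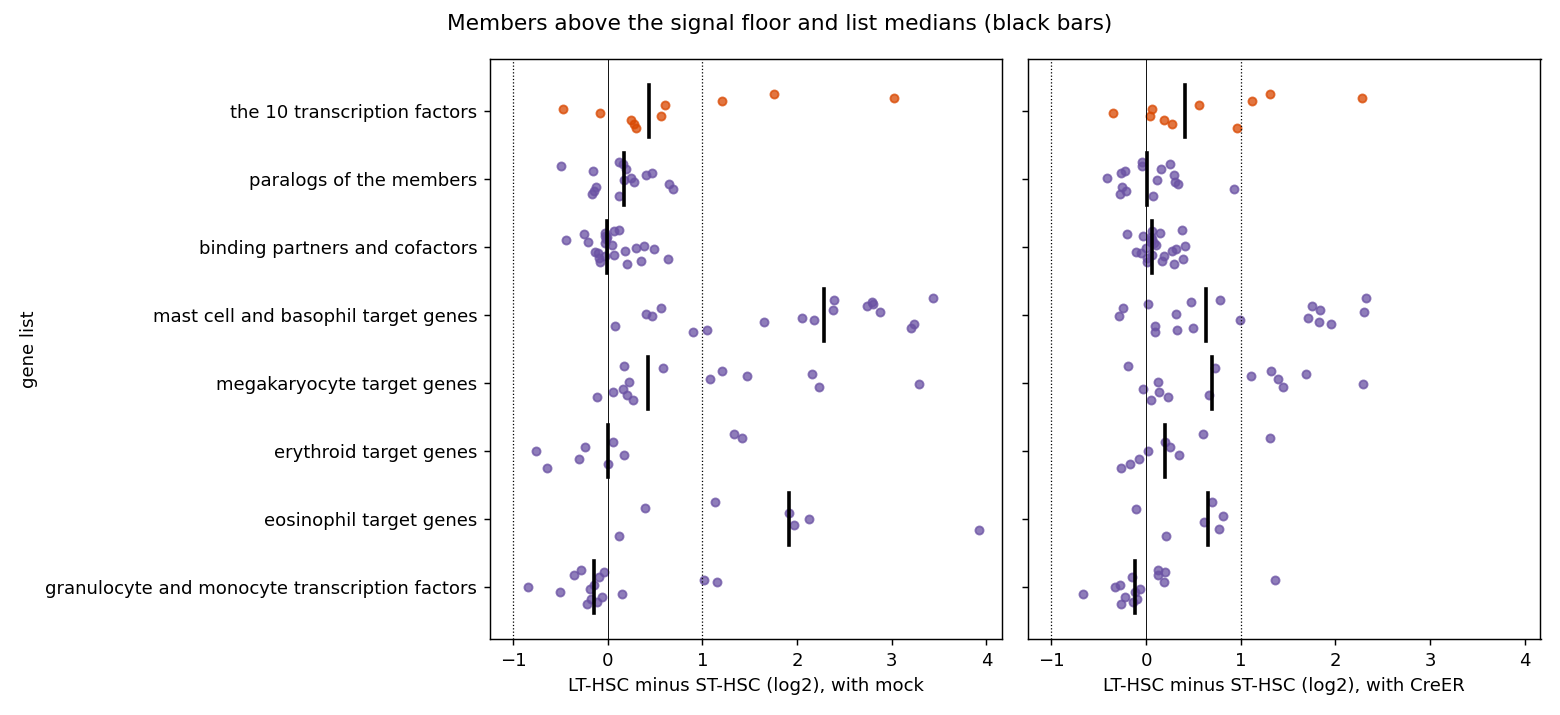
LT-HSC minus ST-HSC log2 differences (x axis) with mock (left) and CreER (right) for the 10 transcription factors and 7 related gene lists (y axis). Lists labelled as target genes hold marker genes of a lineage. Each point is 1 gene above the floor on the higher array, black bars are list medians over those genes, and dotted lines mark 2-fold. Mast cell and basophil genes spread to 3.43 with mock and 2.33 with CreER, whereas binding partners stay within 0.63 of 0.

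Genes with the most similar profile were sought for the 3 factors that spanned at least 1 log2 unit. Likeness was the Euclidean distance between log2 profiles over the 4 arrays, each centred on its own mean, among 10410 other genes. Closest to Gata2 was F2r, the thrombin receptor gene, at a distance of 0.066. F2r read 8.44 with mock and 8.93 with CreER in ST-HSC colonies, against 11.49 and 11.30 in LT-HSC colonies. Tespa1 (0.19) and Pcbd1 (0.25) followed. Closest to Gata1 were the potassium channel gene Kcnk5 (0.13), Ptprcap (0.18) and Ikzf2 (0.18), which encodes the zinc finger protein Helios. Closest to Gfi1b were Slc22a23 (0.088), the activation antigen gene Cd69 (0.11) and the integrin gene Itga2 (0.13). Of these neighbours, Tespa1, Pcbd1, Kcnk5, Slc22a23 and Itga2 were under the floor on both ST-HSC arrays, as was Gata1. They were among the genes searched only through their LT-HSC arrays, and their ST-HSC values are uncertain. Gfi1b was the factor nearest to Gata1 among the 10, at a distance of 0.42, where it ranked 45th of all genes. The nearest of the 10 to Gata2 was Gata1, at 1.14, ranked 76th. With 4 arrays these distances only describe the profiles.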

How the data were processed

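RNA of colony-forming cells was hybridised to 4 arrays, 1 per group. The authors deposited log2 values per probe set, made with Affymetrix Expression Console per the submitters' processing notes. The log2 unit was read from the values, and the sources used here do not give the summarisation or normalization. Values were used as deposited. A gene was represented by its 1-symbol probe set with the highest mean. Of 35556 probe sets 21789 had 1 symbol, 1621 several and 12146 none. Each factor matched the RefSeq gene table by gene number. Array signals flatten near background, so fold sizes of weak genes are uncertain. Limma 3.58.1 in R 4.3.3 fitted an additive model of population and transduction to 10411 genes past the floor on any array and adjusted by Benjamini-Hochberg over all of them, which leaves 1 residual degree of freedom per gene. The steps were tested on simulated data. Named were all 10 factors, up to 4 genes per list and comparison, and the 3 nearest profiles; some other list members were named after their values were seen. The factors and gene lists were chosen with earlier results of these data known. Alternatives were other normalizations, floors, thresholds, probe set averages and an intensity trend in limma's prior.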

Additional observations from a re-analysis of the deposited data

Results flagged for a closer look

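For 4 of the 10 factors CreER minus mock pointed opposite ways in the 2 populations, each value resting on 1 array against 1 other, so the difference between the populations was not tested. Opposite signs were found for 41.9% of the 10411 genes in the limma fit. Gfi1b and Runx1 with median centring, and Klf1 with cyclic loess, also had opposite signs, at -0.014, -0.013 and -0.017 in LT-HSC colonies, so the count of 4 depends on the normalization. Gata2 stood at -0.25 in LT-HSC and 0.49 in ST-HSC colonies. Gata1 stood at -0.25 and 0.19, the latter between arrays that were both under the signal floor. Nfe2 stood at -0.17 and 0.36, and Zfpm1 at 0.42 and -0.24. Lmo2 pointed opposite ways between transductions, with an LT-HSC minus ST-HSC difference of -0.47 with mock and 0.061 with CreER, and this difference was not tested either. The CreER value was -0.0059 with median centring, where the signs were the same. Opposite signs of the LT-HSC minus ST-HSC difference with mock and with CreER were found for 30% of the 10411 genes.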

How the results depend on the processing

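The 10 factors' pairwise differences moved by at most 0.19 log2 units under quantile, cyclic loess or median-centred normalization or the mean of all probe sets, and that move was Mitf's with averaged probe sets (0.11 against -0.079 with mock between LT-HSC and ST-HSC, and -0.16 against -0.33 between CreER and mock in ST-HSC colonies). Gata1, Gata2 and Gfi1b kept an adjusted p under 0.05 in limma for LT-HSC against ST-HSC in every alternative in which they were tested, from 0.0014 to 0.026 for Gata1, and Klf1 did not, at 0.055 with cyclic loess and 0.059 with an intensity trend. With the floor at the 75th percentile 1 of the 10 factors, Gata2, met the size rule between LT-HSC and ST-HSC with mock and 1 with CreER, because fewer genes pass, and at 3-fold 1 did with CreER. At 1.5-fold 2 factors, Lmo2 and Mitf, met it for CreER against mock in LT-HSC colonies. Over all genes, the floor at the 75th percentile gave 53 genes for CreER against mock in LT-HSC colonies, 169 for LT-HSC against ST-HSC with mock and 93 with CreER. The 1.5-fold threshold gave 417 genes for CreER against mock in LT-HSC and 200 in ST-HSC colonies, and 825 and 697 for LT-HSC against ST-HSC with mock and CreER. The 3-fold threshold gave 12, 7, 143 and 67 in the same order. The limma count for LT-HSC against ST-HSC, 653, became 368 with cyclic loess, where the cause was not tested, 186 with the floor at the 75th percentile and 1401 at an adjusted p of 0.1. For CreER against mock limma called 0 genes in every alternative. No paired analysis was possible because each group has 1 array and the labels carry no replicate numbers. Leaving out an array would leave the additive fit no residual degree of freedom. The number of arrays, and signals near the floor for Gata1, Klf1 and Zfpm1, limit the precision.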

Other observations

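Transcription factors of granulocytes and monocytes, were set beside the 10 factors, with no test of the difference between the lists. Of 15 measured, 2 were at least 2-fold higher in LT-HSC colonies with mock (Egr1 and Egr2) and 1 with CreER (Egr1), beside 2.72% and 1.39% of all genes, and 0 were lower. Egr1, an immediate early and monocyte factor, read 9.93 with mock and 9.71 with CreER in ST-HSC colonies, against 10.95 and 11.08 in LT-HSC colonies, with a limma estimate of 1.19 ± 0.12 (SE) and an adjusted p of 0.011. Their median difference was -0.14 with mock and -0.12 with CreER, beside -0.027 and -0.023 over all genes past the floor. Irf8, which directs monocyte and dendritic cell fate, was -0.85 and -0.33 with a limma adjusted p of 0.082. Spi1, which encodes PU.1, the myeloid partner and opponent of GATA1, read 13.06, 13.16, 12.99 and 12.94 on ST-HSC mock, ST-HSC CreER, LT-HSC mock and LT-HSC CreER, with a limma adjusted p of 0.43.

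Of 7 measured stem and progenitor surface genes, 5 passed the floor on at least 1 array, and limma called 1 of these, Cd34, beside 6.27% of all genes. The progenitor antigen gene Cd34 was higher in LT-HSC colonies with both transductions, by 1.82 with mock and 2.22 with CreER, at a limma adjusted p of 0.0042. Cd34 was under the floor on ST-HSC mock, so the size of its mock difference is uncertain. Kit, the SCF receptor gene, stood at 0.40 and 0.32 with a limma adjusted p of 0.090, and Cd27 at 0.15 and 1.05 with one of 0.17. Cd27 was above the floor on LT-HSC CreER alone and was tested only through that array, so the sizes of its differences are uncertain. Procr (-0.35 and -0.14) and Cd48 (-0.28 and -0.11) had the other sign, at limma adjusted p of 0.22 and 0.28.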
